A study of Mus musculus with 19 samples.

Results

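The genes described here are 10 parts of the transforming growth factor beta (TGF-beta) system: the ligands Tgfb1, Tgfb2 and Tgfb3, the activin ligand subunit gene Inhba, the latent ligand carrier Ltbp1, the receptors Tgfbr1, Tgfbr2 and Tgfbr3, the inhibitory gene Smad7 and the secreted matrix gene Tgfbi. They were taken by gene symbol, as a set chosen with earlier results of these data known, and each was found once among the 26796 genes of the deposited table. RNA was sequenced from 19 whole mammary tumours grown from Met1, a mouse mammary tumour line. In the 27HC group (n = 10) the mice had been given extracellular vesicles (small membrane-bound particles released by cells) from neutrophils exposed to 27-hydroxycholesterol, a cholesterol metabolite. In the DMSO group (n = 9) the vesicles came from neutrophils exposed to the solvent DMSO. Every tumour therefore came from a mouse given neutrophil vesicles, and no group without vesicles was analysed here. The sources used here do not give the mouse strain, age, vesicle dose or route, or say if 2 tumours shared a mouse, so the p-values measure the spread between these samples. The comparison asks whether the TGF-beta system of the tumours differed with the treatment of the neutrophils.

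TGF-beta ligands are secreted in a latent form, held by their own propeptide and tethered to the extracellular matrix by latent TGF-beta binding proteins such as Ltbp1. Once released, a ligand binds the type II receptor Tgfbr2, often presented by the co-receptor betaglycan (Tgfbr3), and Tgfbr2 then activates the type I receptor kinase Tgfbr1, which phosphorylates the transcription factors Smad2 and Smad3. Smad7 blocks this step, and collagen genes and Tgfbi are among the genes the pathway is known to induce in fibroblasts and in tumours.

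Total expected counts ran from 28139419 to 37180730 in the 27HC libraries and from 32768437 to 41179056 in the DMSO libraries. A set of 5 libraries stood apart from the other 14 in GC content, computed as the mean of the genes' transcript GC content weighted by their counts: 27HC 1_3, 1_5 and 2_3 and DMSO 1_5 and 2_3 had 49.4% to 49.6%, and the others 50.9% to 52.5%. These libraries are named low-GC here, and results are given with and without them. The epithelial markers Epcam and Krt8 were low: Epcam averaged 2.36 ± 2.05 CPM in 27HC and 3.50 ± 3.84 CPM in DMSO tumours, and Krt8 averaged 3.71 ± 3.39 CPM in 27HC and 3.35 ± 1.64 CPM in DMSO tumours (SD, n = 10 and 9), where CPM is counts scaled to a common library size. Krt18 was higher, at 84.3 ± 27.1 CPM in 27HC and 86.5 ± 30.1 CPM in DMSO tumours. The whole list of 13 epithelial genes summed to 49.1 to 174 CPM (median 135 CPM) in 27HC tumours. In DMSO tumours it summed to 75.7 to 161 CPM (median 123 CPM). Of the 13, 9 lay above 0 in log2 fold change (median 0.12), and 0 passed an adjusted p of 0.05 in edgeR's test. The summed level of 17 skeletal muscle genes ran from 8.75 to 5119 CPM in 27HC and 9.50 to 1479 CPM in DMSO tumours. It ran from 22.3 to 5119 CPM (median 934 CPM) in the low-GC libraries and from 8.75 to 1479 CPM (median 46.8 CPM) in the other 14, so the ranges overlapped. All 17 had a positive log2 fold change, with a median of 1.95, beside 53.9% of all genes above 0. In edgeR's test 8 of the 17 had an unadjusted p under 0.05, against 2.27% of all genes. None of the 17 passed an adjusted p of 0.05. In whole tumours, fewer cells of a type and less RNA per cell cannot be told apart.

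None of the 10 genes passed the test for a change between 27HC and DMSO tumours. In edgeR's quasi-likelihood test 0 of the 10 passed an adjusted p of 0.05, in either direction, against 0.0% of the 15629 genes tested, and the smallest adjusted p over all genes was 0.838. At an unadjusted p under 0.05 the count was 0 of 10, against 2.27% of all genes (201 higher and 153 lower in 27HC tumours). DESeq2 and limma-voom also called 0 of the 10, and in the whole table DESeq2 called 2 genes and limma-voom 0. With the level of skeletal muscle genes as a covariate edgeR called 0 of the 10. All 10 genes passed the filter on low counts, with at least 166 expected counts in every library, and their log2 fold changes lay between -0.15 and 0.19. Their median was 0.075, against 0.014 over all genes tested, with 6 above 0 and 4 below, and the adjusted p of each gene in edgeR's test was 1.00. The values of the groups overlapped for every gene, as the plot of levels by tumour shows.

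**Figure D1:**
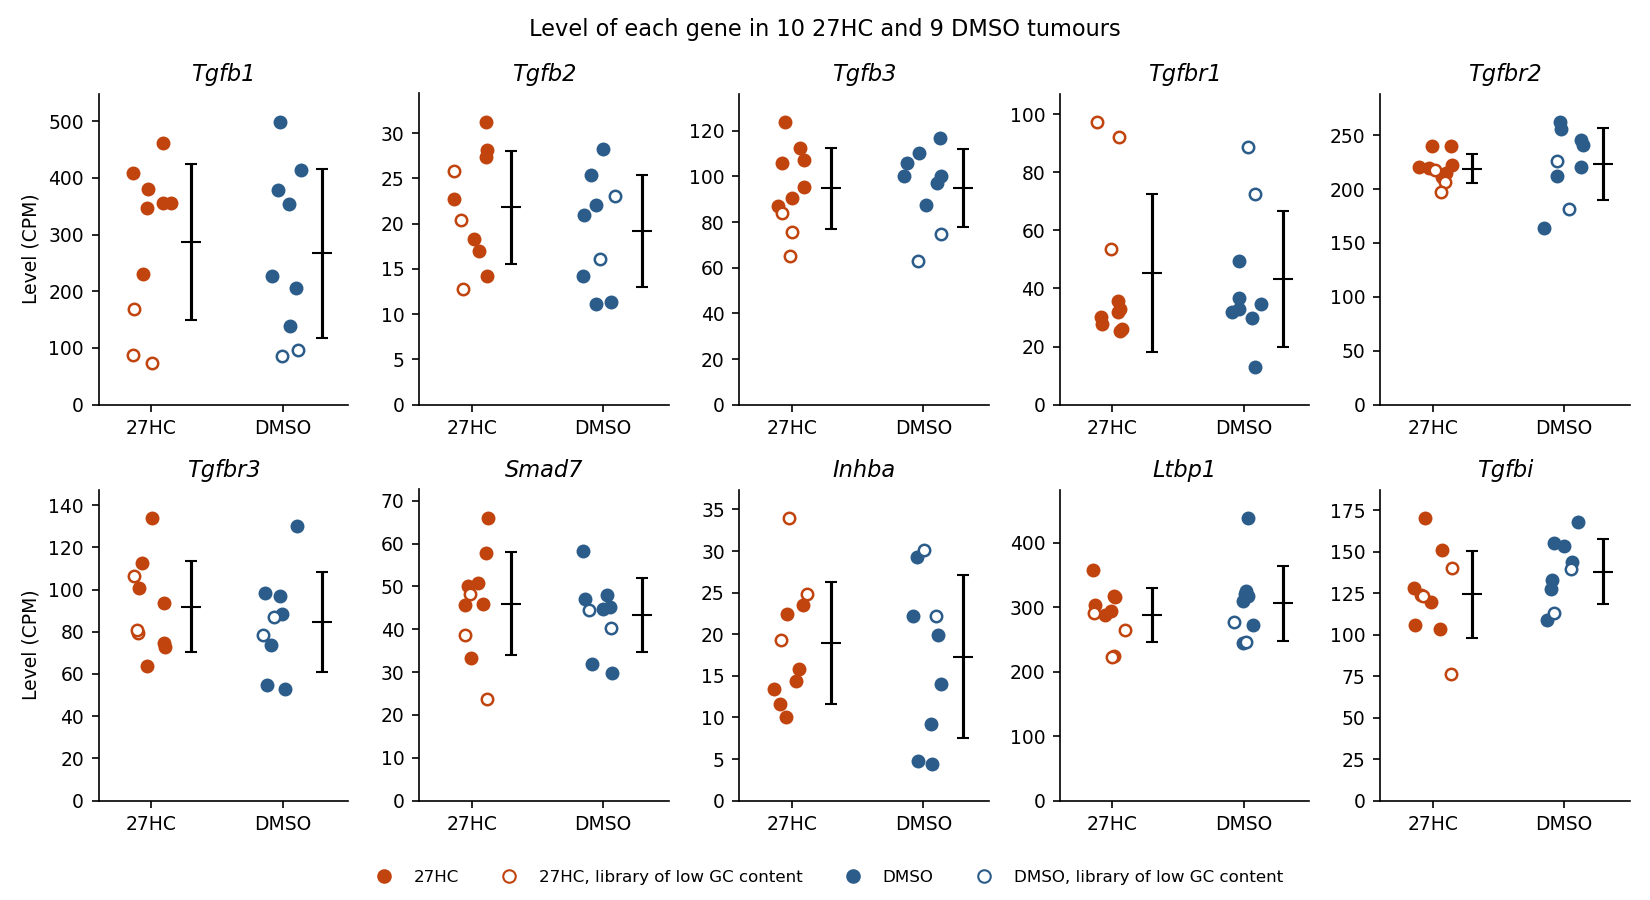
Level of each of the 10 genes in CPM (linear axis from 0) in each tumour, with 10 27HC tumours on the left and 9 DMSO tumours on the right of each panel; open circles are the 5 low-GC libraries, and the bars give the mean and SD. The groups overlap in every panel, and the open circles lie low for Tgfb1 and Tgfb3 and high for Tgfbr1.

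Levels were also divided by the kilobases of merged exon. This length counts the exons of every annotated isoform and not those of the expressed one, so the order between genes is approximate. On this scale Tgfb1 had the highest mean of the 10, 55.0 ± 27.7 CPM per kb over the 19 tumours (SD). It was the highest of the 10 in 14 of them. In the other 5, the low-GC libraries 27HC 1_3 and 2_3 and DMSO 1_5 and 2_3 and also DMSO 2_4, Tgfbi was the highest. At the median of the 5 low-GC libraries Tgfb1 had 17.5 CPM per kb, below Tgfbi (32.6), Tgfbr2 (25.2), Ltbp1 (24.8) and Tgfb3 (22.0 CPM per kb), against 70.5 CPM per kb for Tgfb1 at the median of the other 14. By the mean over 19 tumours, the matrix gene Tgfbi followed with 34.7 ± 6.29 CPM per kb. Tgfb3 (28.0 ± 5.04 CPM per kb), Ltbp1 (27.8 ± 4.66 CPM per kb) and Tgfbr2 (27.0 ± 2.94 CPM per kb) lay within their spread of one another. Lower on this scale were Tgfbr3, with 13.5 ± 3.41 CPM per kb, Smad7, with 9.89 ± 2.28 CPM per kb, and Tgfbr1, with 6.79 ± 3.81 CPM per kb, and these neighbours also overlapped. Tgfb2 (3.55 ± 1.07 CPM per kb) and Inhba (2.85 ± 1.31 CPM per kb) were the lowest and lay within each other's spread. Tgfb2 was the lowest of the 3 TGF-beta ligand transcripts in all 19 tumours. Tgfb3 lay above Tgfb1 in 3, all low-GC libraries (27HC 1_3 and 2_3 and DMSO 2_3), and below it in the others. The type II receptor transcript lay above that of the type I receptor in all 19.

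Tgfb1 (GRCm38 chr7:25687002-25705077) encodes the ligand most often studied in tumours. In 27HC tumours its level was 73.0 CPM at the lowest, 351 CPM at the median and 462 CPM at the highest. In DMSO tumours these values were 85.8, 227 and 499 CPM. The ranges nearly coincide, and the 4 lowest tumours of the study, 27HC 1_3 and 2_3 and DMSO 1_5 and 2_3, are all low-GC libraries. Means were 287 ± 137 CPM in 27HC and 267 ± 150 CPM in DMSO tumours (SD, n = 10 and 9), a log2 fold change of 0.11 (SE 0.37, 95% interval -0.66 to 0.88). The interval therefore spans folds from 0.631 to 1.83, so a moderate change in either direction was not detectable at this spread. Tumour titles carry a first number, 1 or 2, of unstated meaning: among tumours numbered 1 the log2 fold change was -0.28 (SE 0.46), and among those numbered 2 it was 0.63 (SE 0.48). The difference between these did not pass (edgeR interaction test, adjusted p = 0.911). That test called 0 genes in the whole table, with 223 at an unadjusted p under 0.05, and limma-voom called 0.

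Tgfb2 (GRCm38 chr1:186622792-186705989), a ligand that depends on betaglycan for strong receptor binding, had the largest positive log2 fold change of the 10, but a small one. Its level was 12.8 CPM at the lowest, 21.6 CPM at the median and 31.3 CPM at the highest in 27HC tumours. DMSO tumours had 11.2, 20.9 and 28.3 CPM. Of the 10 27HC tumours, 5 lay above the DMSO median and 5 below. The log2 fold change was 0.19 (SE 0.20, 95% interval -0.24 to 0.61).

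Tgfb3 (GRCm38 chr12:86056745-86079041) encodes the remaining TGF-beta ligand. It ran from 65.3 CPM through a median of 92.9 CPM to 124 CPM in 27HC tumours, and from 63.1 CPM through 99.98 CPM to 117 CPM in DMSO tumours. The groups overlapped almost fully, and 4 of 10 27HC tumours lay above the DMSO median. Tgfb3 had the log2 fold change closest to 0 of the 10 genes, -0.0039 (SE 0.13, 95% interval -0.28 to 0.27), and its sign turned in 14 of 32 alternative fits, which ran from -0.082 to 0.055.

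Inhba (GRCm38 chr13:16011851-16031621) encodes the subunit that pairs to form activin A, a ligand of the same family that signals through its own receptors and the same Smads. Levels in 27HC tumours were 10.1 CPM at the lowest, 17.6 CPM at the median and 34.0 CPM at the highest, and in DMSO tumours 4.41, 19.9 and 30.1 CPM. The DMSO range was the wider one, as DMSO 2_4 (4.41 CPM) and DMSO 1_2 (4.80 CPM) lay below every other tumour. The log2 fold change was 0.13 (SE 0.33, 95% interval -0.56 to 0.82), and it was -0.036 at the lowest, without 27HC 2_3, when single tumours were left out.

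To show the start regions of the ligand genes whose levels varied most or varied together, the 250 bases before the annotated start are given for Tgfb1, Tgfb2 and Inhba from RefSeq (GRCm38.p6), each 5′ to 3′ on the strand of the gene. Of the 10 genes, 7 had an entry. Capitals mark matches, on either strand, to any of 4 motifs: the Smad box CAGAC, the AP-1 site TGANTCA, the TEAD site GGAATG and the GC box GGGCGG. No matches overlapped.
Tgfb1, chr7:25686752-25687001, plus strand: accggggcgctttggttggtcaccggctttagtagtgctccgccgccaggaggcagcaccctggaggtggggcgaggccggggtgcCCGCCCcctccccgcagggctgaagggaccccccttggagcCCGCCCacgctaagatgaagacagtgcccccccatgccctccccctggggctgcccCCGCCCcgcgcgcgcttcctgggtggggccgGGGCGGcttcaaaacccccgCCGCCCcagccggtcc
Tgfb2, chr1:186705990-186706239, minus strand: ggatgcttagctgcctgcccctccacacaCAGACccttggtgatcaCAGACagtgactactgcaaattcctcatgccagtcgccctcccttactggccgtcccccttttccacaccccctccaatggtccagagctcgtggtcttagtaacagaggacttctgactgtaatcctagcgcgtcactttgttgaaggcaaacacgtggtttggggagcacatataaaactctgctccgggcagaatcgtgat
Inhba, chr13:16011601-16011850, plus strand: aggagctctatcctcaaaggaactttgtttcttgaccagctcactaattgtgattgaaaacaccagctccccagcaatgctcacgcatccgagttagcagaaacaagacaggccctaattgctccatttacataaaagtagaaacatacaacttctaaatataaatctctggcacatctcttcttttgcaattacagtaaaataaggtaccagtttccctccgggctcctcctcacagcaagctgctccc
The Tgfb1 window had a GC content of 75.2% and held 5 GC boxes, a motif found in 32.7% of the 32841 RefSeq windows of this length. The Tgfb2 window had a GC content of 53.6% and held 2 Smad boxes, which 42.2% of windows hold at least once. The Inhba window had a GC content of 43.2% and no match. AP-1 and TEAD motifs, found in 6.75% and 12.6% of windows, were in none of these 3. A match here is a string of letters and not a measured site.

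Ltbp1 (GRCm38 chr17:75005568-75392512) encodes the matrix protein that anchors the latent ligand. In 27HC tumours it had 223 CPM at the lowest, 293 CPM at the median and 358 CPM at the highest. In DMSO tumours it had 245, 309.7 and 439 CPM, and the highest, DMSO 2_2, stood above the next DMSO tumour at 326 CPM. Its log2 fold change was -0.087 (SE 0.12, 95% interval -0.34 to 0.17), and it was -0.14 to -0.0054 when single tumours were left out, the value nearest 0 being the one without DMSO 2_2.

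The receptors showed differing spreads. Tgfbr2 (GRCm38 chr9:116084293-116175360) was the steadiest of the 10 genes, with 197 CPM at the lowest, 219 CPM at the median and 239.9 CPM at the highest in 27HC tumours and 164, 226 and 262 CPM in DMSO tumours. Its highest tumour was 1.60-fold above its lowest over all 19. Its log2 fold change was -0.029 (SE 0.099, 95% interval -0.23 to 0.18), the narrowest interval of the set. Tgfbr1 (GRCm38 chr4:47353222-47414931) had 25.3 CPM at the lowest, 32.5 CPM at the median and 97.4 CPM at the highest in 27HC tumours. In DMSO tumours it had 13.1, 34.6 and 88.7 CPM. Its highest and lowest tumours were 7.41-fold apart, and the 5 highest were the low-GC libraries. The log2 fold change was 0.065 (SE 0.33, 95% interval -0.62 to 0.75) and was -0.11 (SE 0.19) without those 5 libraries. Betaglycan, from Tgfbr3 (GRCm38 chr5:107106570-107289629), had 64.0 CPM at the lowest, 87.2 CPM at the median and 134 CPM at the highest in 27HC tumours, against 52.7, 86.8 and 130.0 CPM in DMSO tumours. Its log2 fold change was 0.12 (SE 0.17, 95% interval -0.23 to 0.47).

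Smad7 (GRCm38 chr18:75367529-75395935), which the pathway itself induces and which then shuts off the receptors, had 23.7 CPM at the lowest, 47.0 CPM at the median and 66.0 CPM at the highest in 27HC tumours. DMSO tumours had 29.9, 44.8 and 58.2 CPM. Between the groups the log2 fold change was 0.085 (SE 0.16, 95% interval -0.25 to 0.42), and it was -0.058 (SE 0.18) after a correction of each library for GC content. Tgfbi (GRCm38 chr13:56609523-56639562), a matrix protein that TGF-beta induces, had 76.6 CPM at the lowest, 124 CPM at the median and 170.4 CPM at the highest in 27HC tumours, against 109, 139.7 and 168 CPM in DMSO tumours. It had the lowest log2 fold change of the 10, -0.15 (SE 0.13, 95% interval -0.42 to 0.12), and 7 of 10 27HC tumours lay below the DMSO median. Its interval reaches a fold of 0.746 on the low side, so a fall of that size was within the error.

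**Figure D2:**
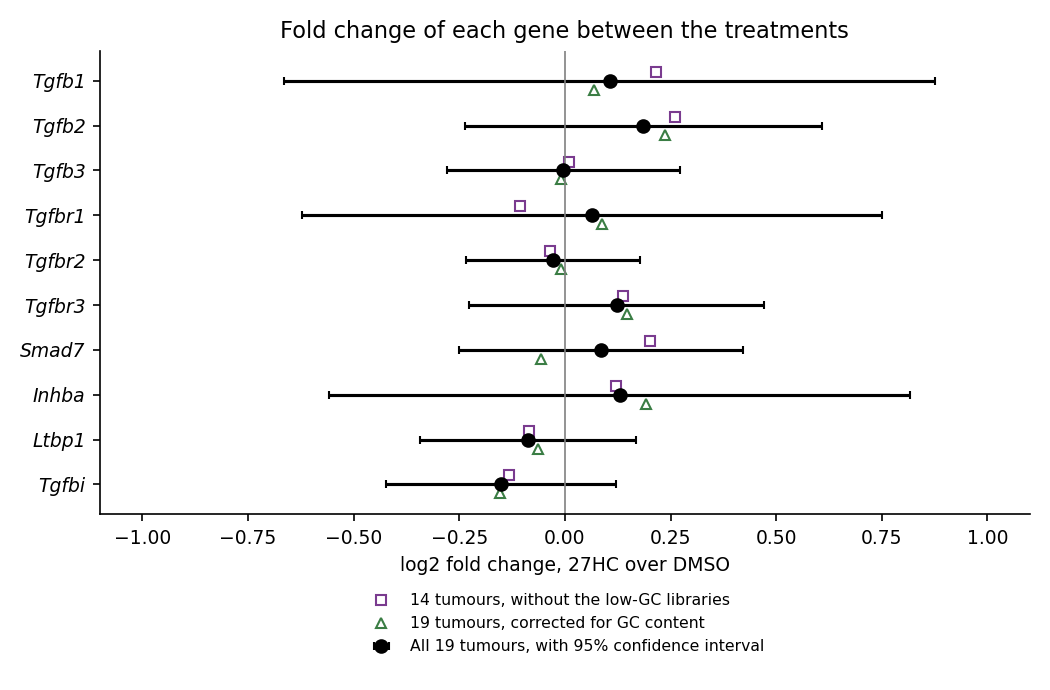
Log2 fold change of each of the 10 genes, 27HC over DMSO, from edgeR (black points with 95% confidence intervals, 19 tumours), without the 5 low-GC libraries (squares, 14 tumours) and after correction for GC content (triangles, 19 tumours). Every interval crosses 0, and the widest are those of Tgfb1, Inhba and Tgfbr1.

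Of the 10 genes, 2 had levels in the 5 low-GC libraries that did not overlap those in the other 14, against 23.9% of all genes tested, so the count is near the background and says nothing particular about these genes. Tgfbr1 had 53.4, 88.7 and 97.4 CPM (lowest, median, highest) in the 5 low-GC libraries and 13.1, 32.0 and 49.4 CPM in the other 14, a ratio of medians of 2.77. Tgfb3 had 63.1, 74.5 and 84.0 CPM in the low-GC libraries and 87.2, 103 and 124 CPM in the others. Tgfb1 was also low in them, with 73.0, 88.1 and 169 CPM, against 139, 356 and 499 CPM in the others, although the ranges overlapped, and Inhba was higher in them at the median, with 24.8 CPM in the low-GC libraries, against 14.2 CPM in the others. The transcripts of Tgfbr1 and Inhba are themselves poor in GC (43.5% and 43.6%), and those of Tgfb1 and Tgfb3 richer (56.2% and 53.0%), against a median of 50.3% over the genes tested. Smad7, with the highest transcript GC content of the 10 at 58.6%, overlapped between these sets, with 23.7, 40.3 and 48.3 CPM in the low-GC libraries, against 29.9, 46.5 and 66.0 CPM in the others. The correction for GC content lowered the SD of log2 CPM over the 19 tumours to 0.63 for Tgfb1 (0.92 without it), to 0.35 for Tgfbr1 (0.74 without it) and to 0.15 for Tgfb3 (0.27 without it). It raised the SD to 0.39 for Smad7 (0.36 without it), to 0.49 for Tgfb2 (0.46 without it) and to 0.38 for Tgfbr3 (0.37 without it). What set the GC content of these libraries was not tested.

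**Figure D3:**
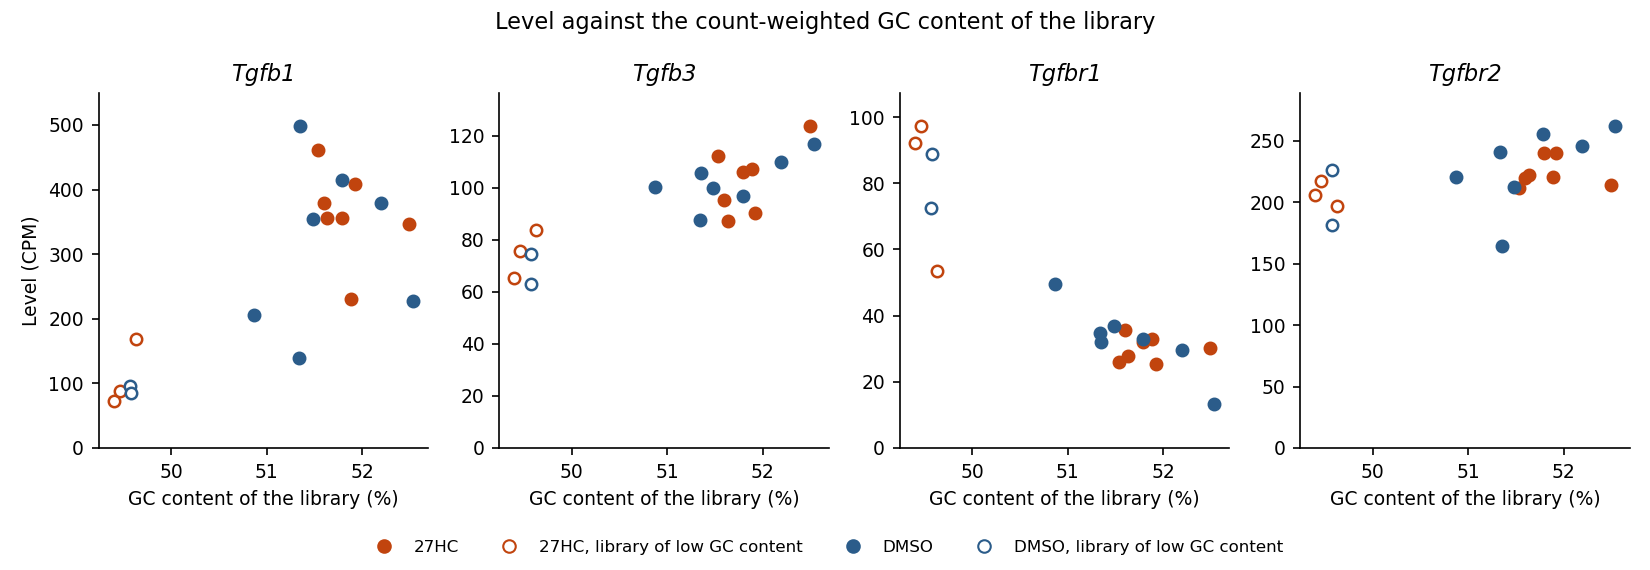
Level (CPM, linear axis from 0) of Tgfb1, Tgfb3, Tgfbr1 and Tgfbr2 in each of the 19 tumours against the GC content of the library in percent; open circles are the 5 low-GC libraries. Tgfbr1 is at 53.4 to 97.4 CPM and Tgfb3 at 63.1 to 84.0 CPM in the open circles, apart from the filled ones, while Tgfbr2 overlaps.

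Among the 14 other libraries, the correlation of each gene with library GC content, adjusted over the 10 genes, passed for Tgfbr1 alone (r = -0.71, permutation p = 0.0038, adjusted p = 0.0377, n = 14). Its Spearman rho was -0.65 (permutation p = 0.0140, adjusted p = 0.140), and r was -0.31 without the 2 libraries farthest from the median GC content, so the relation rests on those. The next largest was Tgfb3 (r = 0.55, permutation p = 0.0386, adjusted p = 0.193). These correlations were added after the low-GC libraries had been seen.

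The 10 genes did not vary as a block. Of the 45 pairs among them, 10 passed an adjusted p of 0.05 for Pearson's r over the 19 tumours, 7 for Spearman's rho, 8 after the correction for GC content and 2 among the 14 libraries outside the low-GC set. The 2 pairs that passed in each of these 4 counts both held Tgfb2, with Tgfbr3 and with Inhba. The second of these did not pass when the 2 tumours farthest from the median Tgfb2 level were left out. What share of pairs among all genes would pass was not computed, so the counts cannot be read as particular to the 10 genes. Tgfb2 and Tgfbr3, a ligand and its co-receptor, had r = 0.84 (permutation p = 1e-05, the smallest the permutations can give, adjusted p = 0.00045) and rho = 0.86 (permutation p = 1e-05, again the smallest, adjusted p = 0.00045). Without the 2 tumours farthest from the median Tgfb2 level, DMSO 2_4 and DMSO 1_2, r was 0.83 (permutation p = 3e-05). It was 0.89 among the 14 libraries, 0.85 within 27HC tumours and 0.82 within DMSO tumours. Each had a higher r with genes outside the 10, the highest being F3 for Tgfb2 (0.91) and Rcor1 for Tgfbr3 (0.95). Tumours 27HC 2_4 and DMSO 1_4 were high for both genes (28.2 and 28.3 CPM of Tgfb2, 134 and 130.0 CPM of Tgfbr3). DMSO 1_2 was low for both, with 11.3 CPM of Tgfb2 and 52.7 CPM of Tgfbr3.

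Tgfb2 and Inhba had r = 0.71 (permutation p = 0.00061, adjusted p = 0.00549) and rho = 0.66 (permutation p = 0.0024, adjusted p = 0.0216). Among the 14 libraries r was 0.89, and after the correction for GC content 0.78. The relation was uneven between treatments, with r = 0.34 within 27HC tumours and r = 0.91 within DMSO tumours, and the difference between these was not tested. Without DMSO 2_4 and DMSO 1_2 it was 0.48 (permutation p = 0.0548, n = 17), so the relation over 19 tumours rests on those, which had the lowest levels of both genes (11.2 and 11.3 CPM of Tgfb2, 4.41 and 4.80 CPM of Inhba). Within tumours of first title number 1 r was 0.63, and within those numbered 2 it was 0.77. Tgfbr3 and Inhba had r = 0.59 (permutation p = 0.00814, adjusted p = 0.0407) and rho = 0.56 (permutation p = 0.01465, adjusted p = 0.0659). Their r was 0.37 without the 2 tumours farthest from the median Tgfbr3 level, DMSO 1_2 and DMSO 1_3. It was 0.72 over the 14 libraries (adjusted p = 0.0564) and 0.65 after the correction for GC content (adjusted p = 0.0166).

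**Figure D4:**
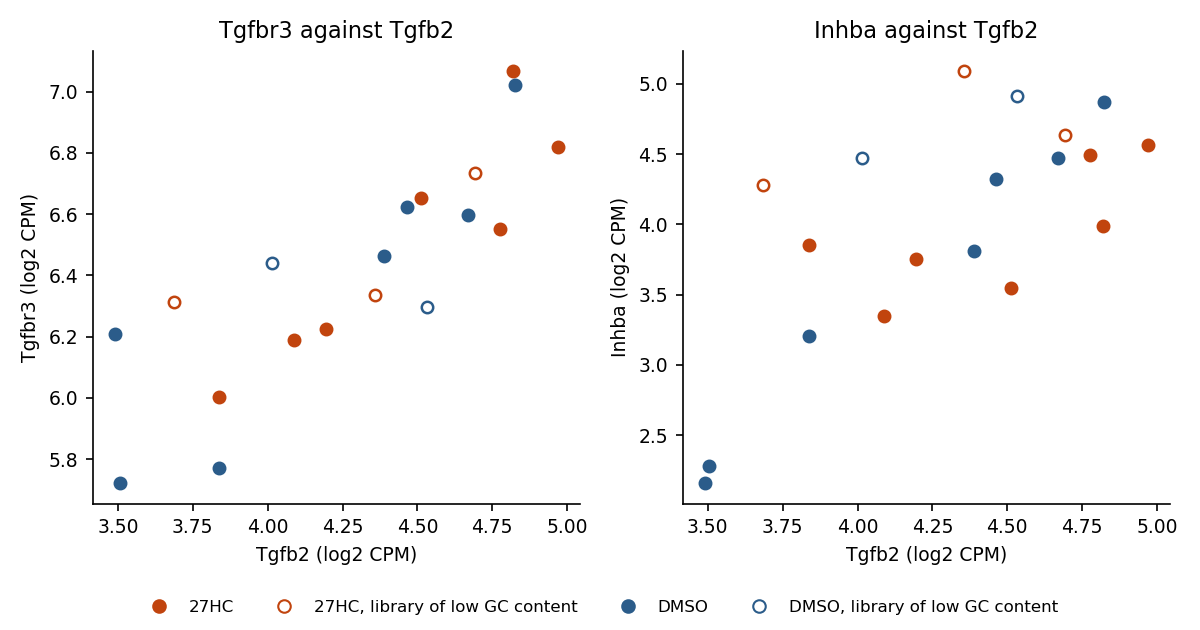
Log2 CPM of Tgfbr3 (left) and Inhba (right) against log2 CPM of Tgfb2 in each of the 19 tumours, coloured by treatment; open circles are the 5 low-GC libraries. Tgfbr3 climbs with Tgfb2 in both treatments (r = 0.85 in 27HC and 0.82 in DMSO tumours), and for Inhba the open circles lie above the filled ones at a given Tgfb2 level.

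Pairs with Tgfb3 or Tgfbr1, whose levels set the low-GC libraries apart, passed over 19 tumours in some cases, and none passed over the other 14 libraries. Tgfb1 and Tgfb3 had r = 0.79 over 19 tumours (permutation p = 0.00011, adjusted p = 0.00165), 0.17 over the 14 and 0.49 after the correction for GC content (adjusted p = 0.132). Tgfb3 and Tgfbr1 had r = -0.81 over 19 tumours (permutation p = 4e-05, adjusted p = 0.0009), -0.34 over the 14 and -0.38 after the correction (adjusted p = 0.240). Tgfb1 and Tgfbr1 had r = -0.78 over 19 tumours (permutation p = 0.00015, adjusted p = 0.00169) and -0.058 over the 14, and they passed after the correction (r = -0.66, permutation p = 0.00176, adjusted p = 0.0166). Tgfbr1 and Smad7 did not pass over 19 tumours (r = -0.18, permutation p = 0.466) or over the 14 (r = 0.45), and passed after the correction (r = 0.66, permutation p = 0.00209, adjusted p = 0.0166). Also passing only after the correction were Tgfb1 with Tgfb2 (r = 0.68, adjusted p = 0.0166), Tgfb1 with Tgfbi and Tgfb2 with Tgfbi (both r = -0.60, adjusted p = 0.0394). Tgfbr1 and Inhba passed over 19 tumours (r = 0.65, permutation p = 0.00256, adjusted p = 0.0165), with r = 0.52 over the 14 and 0.25 after the correction. Tgfbr2 and Ltbp1, the receptor and the ligand's anchor, had r = 0.58 (permutation p = 0.00995, adjusted p = 0.0448) and rho = 0.80 (permutation p = 8e-05, adjusted p = 0.0018) over 19 tumours, r = 0.64 without the 2 tumours farthest from the median Tgfbr2 level, and r = 0.54 over the 14 (permutation p = 0.0610, adjusted p = 0.226). Tgfb2 and Smad7 had r = 0.69 (permutation p = 0.00084, adjusted p = 0.0063) and rho = 0.62 (permutation p = 0.00534, adjusted p = 0.0361) over 19 tumours, with r = 0.57 without DMSO 2_4 and DMSO 1_2, 0.67 over the 14 and 0.19 after the correction for GC content. Tgfb1 and Smad7 had r = 0.59 (permutation p = 0.0075, adjusted p = 0.0407) and rho = 0.52 (permutation p = 0.0241, adjusted p = 0.0902), with r = 0.50 without 27HC 1_3 and DMSO 2_3, 0.59 over the 14 and -0.39 after the correction, so its sign turned.

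Few of the relations to collagen and fibroblast genes passed, and which of them passed depended on the processing. The level of a list in a tumour is the mean z-score of its genes. The 12 collagen genes, which include the main fibrillar chains Col1a1 and Col3a1, summed to between 3770 and 12420 CPM (median 9022 CPM) in 27HC tumours and to between 3236 and 10750 CPM (median 7353 CPM) in DMSO tumours. All 12 had a log2 fold change above 0, beside 53.9% of all genes tested, and none passed edgeR's test. Their median was 0.16, against 0.014 over all genes. For Col1a1 the log2 fold change was 0.37 (SE 0.28), and for Col3a1 it was 0.16 (SE 0.20). Of the 22 fibroblast genes 15 lay above 0, with a median log2 fold change of 0.099, and 0 passed. Pdgfra, a receptor that marks fibroblasts, had -0.012 (SE 0.13) and Dcn, the matrix proteoglycan decorin, -0.19 (SE 0.28).

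Over the 20 pairs of a gene and 1 of these lists, 3 passed an adjusted p of 0.05 for Pearson's r and 0 for Spearman's rho, and 0 passed among the 14 libraries outside the low-GC set. What share of all genes would pass with these lists was not computed. Tgfb1 with collagen genes had r = 0.67 (permutation p = 0.00184, adjusted p = 0.0368) and rho = 0.57 (permutation p = 0.0117, adjusted p = 0.0779). It was 0.60 (permutation p = 0.0112) without the 2 tumours farthest from the median collagen level, 27HC 2_2 and DMSO 1_5. It was 0.79 within 27HC and 0.53 within DMSO tumours, and 0.82 and 0.76 within first title numbers 1 and 2. Among the 14 libraries r was 0.62 (permutation p = 0.0164, adjusted p = 0.0950), and after the correction for GC content 0.56 (permutation p = 0.0121, adjusted p = 0.0677). Smad7 with collagen genes had r = 0.60 (permutation p = 0.00728, adjusted p = 0.0485) and rho = 0.62 (permutation p = 0.00566, adjusted p = 0.0779). Without those 2 tumours r was 0.64, and it was 0.79 within 27HC and 0.28 within DMSO tumours. Over the 14 libraries r was 0.66 (permutation p = 0.00996, adjusted p = 0.0950), and after the correction -0.035. Tgfb3 with collagen genes, the third pair, had r = 0.63 (permutation p = 0.00412, adjusted p = 0.0412) and rho = 0.45 (permutation p = 0.0565, adjusted p = 0.210). It had r = 0.22 over the 14 libraries (permutation p = 0.452) and 0.52 after the correction (permutation p = 0.0233, adjusted p = 0.0933). Tgfb2 with collagen genes did not pass at first (r = 0.54, permutation p = 0.0178, adjusted p = 0.0655; rho = 0.59, permutation p = 0.00965, adjusted p = 0.0779), and passed after the correction (r = 0.74, permutation p = 0.00034, adjusted p = 0.0068). No pair passed in all of these forms.

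The count of 3 moved with single tumours. It was 0 without 27HC 1_2, 27HC 1_3, 27HC 2_5 or DMSO 2_2, and 1 without 27HC 1_1 or DMSO 1_1. It was 5 without 27HC 1_5, 6 without 27HC 2_1 and 7 without DMSO 1_2. Direction held for Tgfb1, which kept r between 0.64 and 0.73 with collagen genes whichever tumour was left out. With fibroblast genes Tgfb1 had r = 0.21 (permutation p = 0.382), and -0.23 after the correction for GC content. The largest with fibroblast genes over 19 tumours were Tgfb2 (r = 0.54, permutation p = 0.0192, adjusted p = 0.0655) and Tgfbr2 (r = 0.53, permutation p = 0.0196, adjusted p = 0.0655). Tgfbr2 had rho = 0.44 (permutation p = 0.0630) and r = 0.32 over the 14 libraries, and it passed after the correction for GC content (r = 0.66, permutation p = 0.00204, adjusted p = 0.0204). Tgfbr1 with fibroblast genes had r = 0.22 over the 14 libraries.

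**Figure D5:**
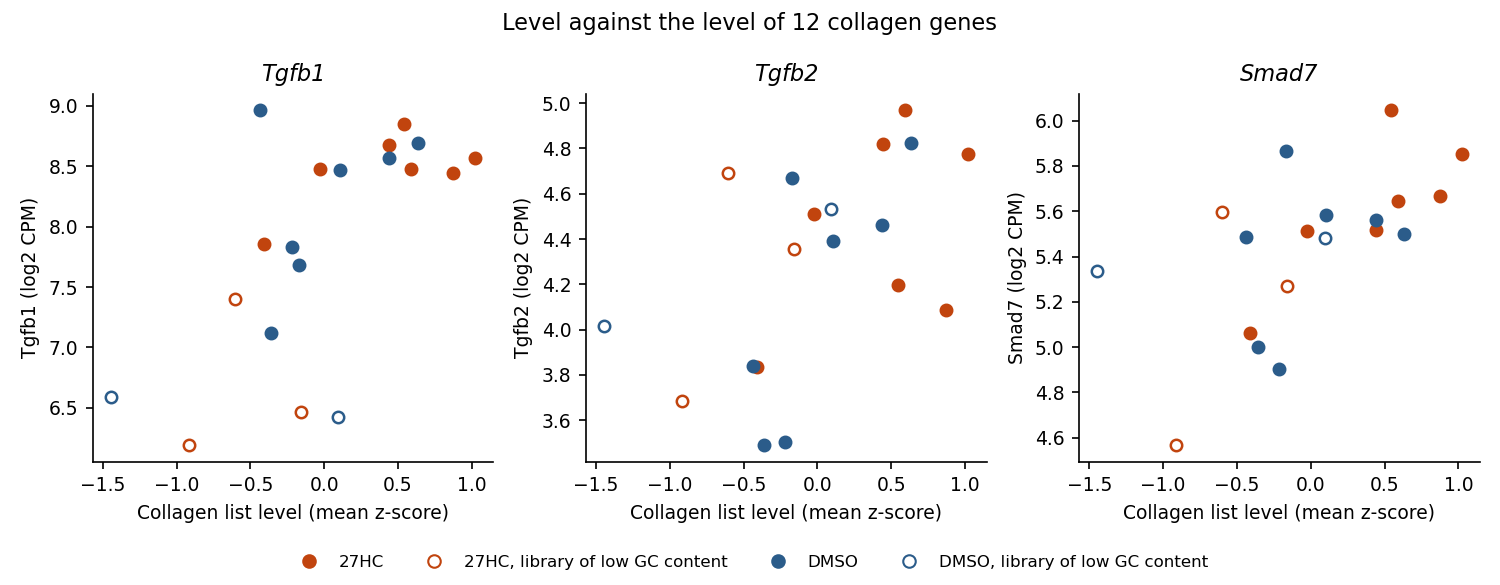
Log2 CPM of Tgfb1, Tgfb2 and Smad7 against the level of 12 collagen genes (mean z-score) in each of the 19 tumours, coloured by treatment; open circles are the 5 low-GC libraries. Tgfb1 lies higher where the collagen level is higher (r = 0.67 over 19 tumours and 0.62 over the 14 filled circles), with both treatments spread along the same cloud.

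Markers of other cells also moved with these genes. Over 60 pairs with macrophage, T and NK cell, endothelial, pericyte, epithelial and skeletal muscle lists, 8 passed an adjusted p of 0.05 for Pearson's r, 3 for Spearman's rho, 0 among the 14 libraries and 4 after the correction for GC content, and none in all of these. What share of all genes would pass with these lists was not computed, so the relations cannot be read as particular to the 10 genes. Smad7 was lower where macrophage genes were higher (r = -0.83, permutation p = 1e-05, the smallest possible, adjusted p = 0.0006), with rho = -0.80 (permutation p = 6e-05, adjusted p = 0.0036). This r was -0.87 within 27HC and -0.81 within DMSO tumours. Smad7 was also lower where T and NK cell genes were higher (r = -0.72, permutation p = 0.00045, adjusted p = 0.009; rho = -0.79, permutation p = 0.00021, adjusted p = 0.0063). Without the 2 tumours farthest from the median list level r was -0.74 with macrophage genes and -0.75 with T and NK cell genes. Over the 14 libraries r was -0.78 with macrophage genes (permutation p = 0.00116, adjusted p = 0.0696). With T and NK cell genes it was -0.69 (permutation p = 0.00559, adjusted p = 0.112). After the correction for GC content these were 0.15 and -0.14. Tgfb1 had r = -0.63 with macrophage genes (permutation p = 0.0043, adjusted p = 0.0417) and rho = -0.52 (permutation p = 0.0238, adjusted p = 0.155), with r = -0.58 without the 2 farthest tumours, -0.58 over the 14 libraries and -0.87 after the correction. It had r = 0.77 with pericyte genes (permutation p = 0.00012, adjusted p = 0.0036) and rho = 0.71 (permutation p = 0.00087, adjusted p = 0.0174), with r = 0.66 without the 2 farthest tumours, 0.73 over the 14 libraries and 0.22 after the correction. Tgfb2 had r = -0.62 with macrophage genes (adjusted p = 0.0417) and -0.70 after the correction (adjusted p = 0.0232). Tgfbi went the other way, with r = 0.49 (adjusted p = 0.123) and 0.66 after the correction (adjusted p = 0.03315). Tgfb1 with T and NK cell genes (r = -0.64), Tgfb3 with pericyte genes (r = 0.63) and Smad7 with pericyte genes (r = 0.61) also passed over 19 tumours. Tgfb2 with T and NK cell genes passed only after the correction (r = -0.69). The macrophage genes summed to 1743 to 3580 CPM in 27HC and 1897 to 3402 CPM in DMSO tumours. In log2 fold change 10 of 11 lay below 0 (median -0.21) and 0 passed. The T and NK cell genes summed to 47.2 to 155 CPM in 27HC and 55.6 to 224 CPM in DMSO tumours. Of these 12, 10 lay below 0 (median -0.26) and 0 passed. Over all genes tested 53.9% lay above 0, with a median of 0.014. Genes of 1 list can move together, so these counts are not of independent genes. What part the cells of these lists had in the levels was not tested.

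No gene in the rest of the pathway passed the test either. Over all genes tested 53.9% had a log2 fold change above 0, and the median was 0.014. Of 13 tested genes for the storage and activation of latent TGF-beta, 0 passed in either direction, 10 lay above 0 and the median log2 fold change was 0.093. Those with the smallest p were Lrrc32 (0.34, SE 0.21), which holds latent TGF-beta on cell surfaces, Ltbp2 (0.30, SE 0.23), a relative of Ltbp1, and the microfibril gene Fbn1 (0.25, SE 0.22). Itgb8, an integrin subunit that releases the ligand, had 0.17 (SE 0.31). Of 9 other ligands of the family 0 passed and 7 lay above 0 (median 0.12). The bone morphogenetic protein gene Bmp4 had 0.50 (SE 0.25), Bmp6 0.24 (SE 0.25), Inhbb, the other activin subunit, 0.12 (SE 0.24), and the stress-induced ligand Gdf15 -0.80 (SE 0.45). Gdf15 was a low transcript, at 0.126 to 1.45 CPM in 27HC and 0.138 to 2.37 CPM in DMSO tumours, and all 10 27HC tumours lay below the DMSO median of 1.57 CPM.

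Of 10 other receptors and co-receptors 0 passed and 6 lay above 0, beside 53.9% of all genes tested (median log2 fold change 0.037, against 0.014). Among them were the activin receptors Acvr1b (0.13, SE 0.13) and Acvr2b (0.33, SE 0.24) and the bone morphogenetic protein receptor Bmpr1b (0.42, SE 0.39). Of 17 Smads, co-regulators and antagonists 0 passed and 9 lay above 0 (median 0.0026). Smad3, which carries the signal to the nucleus, had -0.0054 (SE 0.14), and Fst, the activin antagonist follistatin, 0.0026 (SE 0.17). The largest of the named ones was the antagonist Nog, with 0.79 (SE 0.39) and medians of 0.935 CPM in 27HC and 0.640 CPM in DMSO tumours. Its log2 fold change was 0.39 without 27HC 1_5, which had the highest level (4.44 CPM), and 0.032 without the 5 low-GC libraries. Ski, a Smad co-repressor, had 0.14 (SE 0.17) and the antagonist Grem1 -0.35 (SE 0.44).

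Of 21 genes known to respond to TGF-beta 0 passed, 17 lay above 0 and the median log2 fold change was 0.13, beside 53.9% of all genes above 0 and a median of 0.014. Ccn2, which encodes connective tissue growth factor, was the 1 gene of these 21 with an unadjusted p under 0.05, against 2.27% of all genes tested. It had 55.9 CPM at the lowest, 90.8 CPM at the median and 156 CPM at the highest in 27HC tumours, against 49.0, 62.8 and 79.2 CPM in DMSO tumours, and 9 of 10 27HC tumours lay above the DMSO median. It had a log2 fold change of 0.52 (SE 0.17, 95% interval 0.17 to 0.87), with an adjusted p of 1.00 in edgeR's test, so it did not pass. It stayed between 0.33 and 0.70 over all 32 alternative fits. Id3 (0.33, SE 0.25) and Id1 (0.29, SE 0.23), inhibitors of basic helix-loop-helix factors, did not pass.

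The transcripts whose levels over the 19 tumours were most like each gene's differed between the 10. They were ranked among 12314 genes by Pearson's r of log2 CPM, which is a description here. Tgfb1 was most like Mapk3 (r = 0.99, and 0.98 over the 14 libraries), an ERK kinase gene, then Trappc9 and Inf2, all with transcripts of 55.9% to 59.6% GC. After the correction for GC content r with these was 0.97 to 0.99. Tgfbr1 was most like Srek1 (r = 0.98, and 0.95 over the 14), then Slc25a36 and Zdhhc21, all with transcripts of 39.3% to 43.0% GC. For these r was 0.93, 0.63 and 0.82 after the correction. Tgfb2 was most like F3, which encodes tissue factor (r = 0.91, and 0.92 over the 14), then Bmp2 and Crim1. Tgfbr3 was most like Rcor1 (r = 0.95), Pdzrn3 and Tcf7l2, and Inhba was most like Itga8 (r = 0.91), an integrin subunit gene, Rora and Raph1. Smad7 was most like Irx2 (r = 0.89), Twist1 and Baiap2l1, with r of 0.94, 0.86 and 0.059 after the correction. Tgfbr2 was most like Nrp2 (r = 0.87), Stk10 and Dock8, and Tgfb3 was most like Tln2, Mindy1 and Gper1 (r = 0.82, 0.77 and 0.77 over the 14). Ltbp1 was most like Asap2 (r = 0.82), Lamb1 and App, and Tgfbi was most like Btbd19 (r = 0.91), Brd2 and Pprc1.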

How the data were processed

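RNA of 19 whole tumours was sequenced as stranded poly(A) libraries, per the labels' protocols. The deposited values are expected counts per gene, not normalised, which the authors estimated from the reads. Build GRCm38 and the tools kallisto 0.44.0, edgeR and limma appear in the submitters' processing notes without a role for each, and how transcripts were summed to genes is not given in the sources used here. Reads shared by near-identical transcripts are divided by a model in such counts.

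Columns were matched to samples by title, and no column was left unmatched. Counts were rounded to whole numbers, filtered with filterByExpr and scaled by TMM, and 27HC was compared with DMSO by edgeR's quasi-likelihood test (edgeR 4.0.16, R 4.3.3) over 15629 genes, with Benjamini-Hochberg adjustment and a threshold of 0.05. Totals were 28139419 to 41179056 counts per tumour. CPM are counts scaled to a common library size by TMM, and log2 values use a prior count of 2. Correlations have two-sided p-values from 100000 permutations over tumours (numpy 2.4.6, scipy 1.17.1), adjusted within each family of pairs. Coordinates, exon lengths and GC content came from GENCODE M21, and 506 identifiers had no symbol. Promoter windows came from RefSeq. The interaction with the first title number was fitted in edgeR. The genes and lists were chosen with earlier results of these data known. Apart from the 10 genes, named genes are the 3 of smallest unadjusted p in each pathway list, 10 genes named whatever their values (1 further gene of that rule is not reported here), and the 3 most alike each of the 10. Alternatives were DESeq2 1.42.0, limma 3.58.1 (voom, with and without quality weights), RLE scaling, other filters, a replicate block, the title number, a muscle covariate and leaving out tumours. The correction for GC content (lowess per library, span 0.3) was added after the data were seen. The main edgeR fit and the permutation test of Pearson's r were tested on simulated data. No tumours were duplicated: the lowest chi-square per degree of freedom between any 2 of a group was 40.2.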

Additional observations from a re-analysis of the deposited data

Results flagged for a closer look

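Ltbp1, the matrix anchor of latent TGF-beta, was high in 1 DMSO tumour. DMSO 2_2 had a log2 CPM of 8.78 (439 CPM), and the next DMSO tumour had 326 CPM. The gap to that tumour was 0.512 of the range of the DMSO group, above Dixon's critical value of 0.493 for 9 samples. Among 20 combinations of gene and treatment examined this was the 1 that passed, and chance alone passes about 1 in 20. Without that tumour the log2 fold change of Ltbp1 was -0.0054, against -0.087 with it.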

How the results depend on the processing

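The count of the 10 genes past the threshold was 0 in all 32 alternatives, and the count over all genes was 0 except with DESeq2, which called 2. With the full title number as a replicate block 0 genes were called. Whether same-numbered tumours belong together was not settled. Of 9 pairs 5 had a correlation over 0.1, in a range from -0.43 to 0.78, and 2 correlated best with their own number. For the numbers 1_5 and 2_3 both tumours were low-GC libraries, so a shared number and a shared GC content cannot be told apart there. Some log2 fold changes near 0 turned sign. With DESeq2 Tgfb3 had 0.011 and Smad3 0.0070, with limma-voom Smad3 had 0.010, and with RLE scaling Tgfb3 had 0.012 and Smad3 0.0090. With quality weights Tgfbr1 had -0.15, Itgb8 -0.11, Fst -0.052 and Pdgfra 0.0055. With a filter at 1 log2 CPM Fst had -0.0034, and with the first title number as covariate Fst had -0.00056. Among tumours numbered 1, Tgfb1 had -0.28, Ltbp1 0.039, Acvr1b -0.069, Ski -0.055, Smad3 0.032, Inhbb -0.015, Fst -0.14, Col1a1 -0.097, Pdgfra 0.047 and Dcn 0.011. Among those numbered 2, Tgfb3 had 0.055, Tgfbr1 -0.22 and Itgb8 -0.11. Without the 5 low-GC libraries Tgfb3 had 0.011, Tgfbr1 -0.11, Itgb8 -0.090 and Fst -0.037. With the muscle covariate Tgfb3 had 0.022, Tgfbr1 -0.15, Smad3 0.022, Itgb8 -0.014, Fst -0.079 and Pdgfra 0.0076. After the correction for GC content Smad7 had -0.058, Inhbb -0.022 and Pdgfra 0.021. When single tumours were left out, the ranges that crossed 0 were -0.082 to 0.038 for Tgfb3, -0.16 to 0.27 for Tgfbr1, -0.084 to 0.0037 for Tgfbr2, -0.093 to 0.039 for Smad3, -0.10 to 0.10 for Fst, -0.017 to 0.28 for Tgfb1, -0.089 to 0.028 for Pdgfra, -0.75 to 0.17 for Grem1, -0.0025 to 0.20 for Inhbb and -0.036 to 0.27 for Inhba. The 3 collagen and fibroblast pairs became 7 with RLE scaling, 0 with all collagen genes by symbol, 0 without the low-GC libraries, 0 with Spearman's rho, and 0 to 7 when single tumours were left out. The 10 pairs among the genes became 2 without the low-GC libraries. Inhba with collagen genes turned to r = -0.055 after centring on treatment and first title number. Without the low-GC libraries, r with collagen genes was 0.054 for Tgfbr1, -0.090 for Ltbp1 and -0.10 for Tgfbi, and with fibroblast genes 0.22 for Tgfbr1. After the correction for GC content, r with fibroblast genes was -0.23 for Tgfb1 and 0.43 for Tgfbr1, r with collagen genes was -0.035 for Smad7 and -0.15 for Tgfbi, and r of Tgfb1 with Smad7 was -0.39. Tgfbr1 with fibroblast genes ran from -0.083 to 0.10 when single tumours were left out. The cause of these turns was not tested. Tgfb1, Inhba and Tgfbr1 had the widest intervals. No alternative varied depth: the 10 genes had at least 166 expected counts in every library, while Gdf15 fell to 4.56 and Nog to 15.1.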
